A study of Homo sapiens with 8 samples.

Results

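The regions described here were bound by ZNF676 in HEK293T cells according to 1 immunoprecipitated library and not according to the other two. Peaks of the 3 HEK293T lists that overlapped by at least 1 bp were merged, regions with a peak in exactly 1 list were kept, and those overlapping an H1 region called in 2 or more of the 3 H1 lists were dropped. Of 2172 merged regions, 866 had a peak in 1 list, 46 of these were dropped, and 820 remained, which is 37.8% of all merged regions. They are called one-library regions. Replicate 1 contributed 450 of them, replicate 2 contributed 252 and replicate 3 contributed 118, and each region held a single peak. The regions were chosen by the positions of the peaks in the lists, which are measured values, so absence from the other lists, rank, score and width are given as description, with no test.

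HEK293T is a human embryonic kidney line, and H1 is a human embryonic stem cell line. Both overexpressed a 3HA-tagged ZNF676 from a stably integrated lentiviral vector. In HEK293T the construct was in the pTRE backbone, cells were selected with puromycin, and expression was induced with doxycycline. In H1 it was in the pRRL-IRES-Blast backbone, and cells were selected with blasticidin. Chromatin was precipitated with the antibody HA.11 against the tag in 3 libraries per line, and 1 input library per line served the authors as the control for peak calling. No library from cells without the tagged protein was analysed here, and the replicates were biological triplicates according to the study's methods. PCR duplicates were removed from the H1 libraries only, so cell line, vector and duplicate removal cannot be told apart.

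KRAB zinc finger proteins bind DNA through arrays of zinc fingers and recruit the corepressor KAP1 (TRIM28), which in turn brings in enzymes that deposit repressive chromatin marks. Many of them recognise transposable elements of one family. LTR12C is the long terminal repeat of an ERV9 endogenous retrovirus, is present in many copies in primate genomes, and can act as a promoter.

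An LTR12C copy used in the study's reporter work, located in the genome by its cloning primers, served as the sequence reference. A peak was called LTR12C-like when at least 100 bases of it aligned to this element. In the LTR12C-like regions found in all 3 HEK293T libraries, peak centres lay at a median position of 62 of the 1549 bp element, and the 60 bp around that position were taken as the central stretch. It is shown because it is the part of the element under the peaks, and it contains the 9-base unit GCAGCCCTC in a pair of adjacent copies, which are in capitals. The element's stretch lies on the plus strand of GRCh37 at chr6:52651142-52651201.
LTR12C element, 60 bases: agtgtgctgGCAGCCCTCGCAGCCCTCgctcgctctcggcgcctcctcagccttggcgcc

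The LTR12C-like one-library regions shown here carried a related stretch. The 6 shown were the 3 highest ranked in replicate 1 and all 3 of replicate 3, on the strand that matches the element. Those of replicate 3 ranked low in their list, at percentiles 2.23 to 5.85. Each is printed as 60 bases, or as 51 bases where the stretch without 1 of its unit copies was the closer match, and exact copies of the unit are in capitals.
Replicate 1, nearest start site ENSG00000232294, chr20:51344924-51344974, minus strand: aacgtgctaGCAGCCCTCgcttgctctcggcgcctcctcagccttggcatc
Replicate 1, nearest start site DHFRP3, chr2:83213339-83213389, minus strand: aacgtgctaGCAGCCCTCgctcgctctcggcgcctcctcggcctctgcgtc
Replicate 1, in TNNI3K, chr1:74714087-74714137, minus strand: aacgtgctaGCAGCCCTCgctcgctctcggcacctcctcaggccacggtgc
Replicate 3, nearest start site AL353898.1, chr1:54470390-54470449, minus strand: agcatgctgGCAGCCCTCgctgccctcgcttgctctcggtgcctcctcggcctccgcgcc
Replicate 3, in LINC00616, chr4:138974548-138974607, minus strand: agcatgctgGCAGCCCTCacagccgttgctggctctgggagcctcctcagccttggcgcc
Replicate 3, in MIB1, chr18:19286313-19286363, plus strand: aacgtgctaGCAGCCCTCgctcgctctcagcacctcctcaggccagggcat
All 6 held 1 exact copy of the unit, and 4 of them were closer to the version of the stretch with 1 copy, with 76.5% to 88.2% identity.

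Most one-library regions were promoters, and these are shown for their base composition. A high-ranked promoter region of each library, with a central window of single-copy sequence that touched no annotated UTR, is given as its central 150 bases on the plus strand, with CpG dinucleotides in capitals.
Replicate 1, promoter of KIRREL3 and KIRREL3-AS3, chr11:126873217-126873366: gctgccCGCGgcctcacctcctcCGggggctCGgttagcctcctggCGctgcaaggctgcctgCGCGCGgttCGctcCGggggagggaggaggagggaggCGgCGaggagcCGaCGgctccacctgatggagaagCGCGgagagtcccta
Replicate 2, promoter of MAGI3, chr1:113932591-113932740: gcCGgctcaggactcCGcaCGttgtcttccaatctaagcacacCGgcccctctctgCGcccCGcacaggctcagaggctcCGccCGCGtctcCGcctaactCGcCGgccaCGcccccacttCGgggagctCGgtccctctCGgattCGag
Replicate 3, promoter of ENSG00000228792, chr1:211817168-211817317: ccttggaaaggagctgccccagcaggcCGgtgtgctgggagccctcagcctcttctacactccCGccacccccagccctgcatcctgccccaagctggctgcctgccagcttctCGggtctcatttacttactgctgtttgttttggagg
The KIRREL3 and MAGI3 sequences held 16 and 17 CpG dinucleotides, and the ENSG00000228792 sequence held 3. The 300 bp window of ENSG00000228792 held 5, against a median of 23 for one-library promoters of replicate 3, so it is not typical of them.

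One-library regions lay low in their lists. They made up 26.3% of the 1711 peaks of replicate 1, 17.6% of the 1432 of replicate 2 and 9.39% of the 1257 of replicate 3. By score, their median percentile within the list was 19.6, 17.3 and 12.3, where 100 is the strongest peak. In the upper 50% of the lists there were 36, 5 and 1 of them, and in the top 10% there were 0 in each list. The score is the authors' own, on a scale that the lists do not state, so it served only to rank peaks within a list. Median widths were 267, 206 and 203.5 bp, against 333, 262 and 245.5 bp for the peaks of recurrent regions. Recurrent here means the 838 regions outside the H1 consensus with a peak in 2 (352 regions) or 3 (486 regions) HEK293T lists.

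Near misses were few. The median distance from a one-library region to the closest peak of another HEK293T list was 376674 bp, and 14 of the 820 had such a peak within 1 kb. Just inside the rule was the promoter of TRAF3IP2, which encodes an adaptor of interleukin-17 signalling: its replicate 2 peak lay 80 bp from a replicate 1 peak. At the promoter of LRP3, a peak of replicate 2 and a peak of replicate 3 lay 177 bp apart and counted as separate one-library regions. Just outside the rule were regions at MAML1, a Notch coactivator, at JOSD1, a deubiquitinase, and at ART5, whose peaks in replicates 2 and 3 overlapped by 64, 95 and 109 bp.

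The regions fell into 4 sequence classes. Of the 820, 9 were AT-rich (under 30% GC in the central 300 bp, a limit chosen after the values were seen), 79 were LTR12C-like, 487 were promoters (within 1 kb of any annotated transcription start site) and 245 were none of these. By annotation alone, 499 lay at a promoter (60.9%, exact 95% binomial interval 57.4 to 64.2), 30 in another exon, 139 in an intron and 152 between genes, and 277 of the 820 overlapped a UTR. Such intervals cover counting error only.

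The 3 libraries supplied different regions. In replicate 1, 76 of 450 one-library regions were LTR12C-like (16.9%, 95% interval 13.5 to 20.7). In replicate 2 there were 0 of 252, for which the interval reaches 1.45%, and in replicate 3 there were 3 of 118 (2.54%, 0.527 to 7.25). Promoters made up 48.7% of the one-library regions of replicate 1, 78.6% of those of replicate 2 and 69.5% of those of replicate 3. The promoter intervals were 73.0 to 83.5 in replicate 2 and 60.3 to 77.6 in replicate 3. These intervals describe counting error within a library. Peaks of a library are not replicates, so the differences between libraries were not tested. Windows with over 50% of their 24-mers at 10 or more genome positions, from any kind of repeat, made up 8.89%, 3.57% and 9.32%. By this cut replicate 1 was not the highest. The mean share of 24-mers at 2 or more positions was highest in replicate 1, at 21.7%, against 9.66% and 12.8% in replicates 2 and 3. AT-rich regions numbered 8, 1 and 0.

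**Figure D1:**
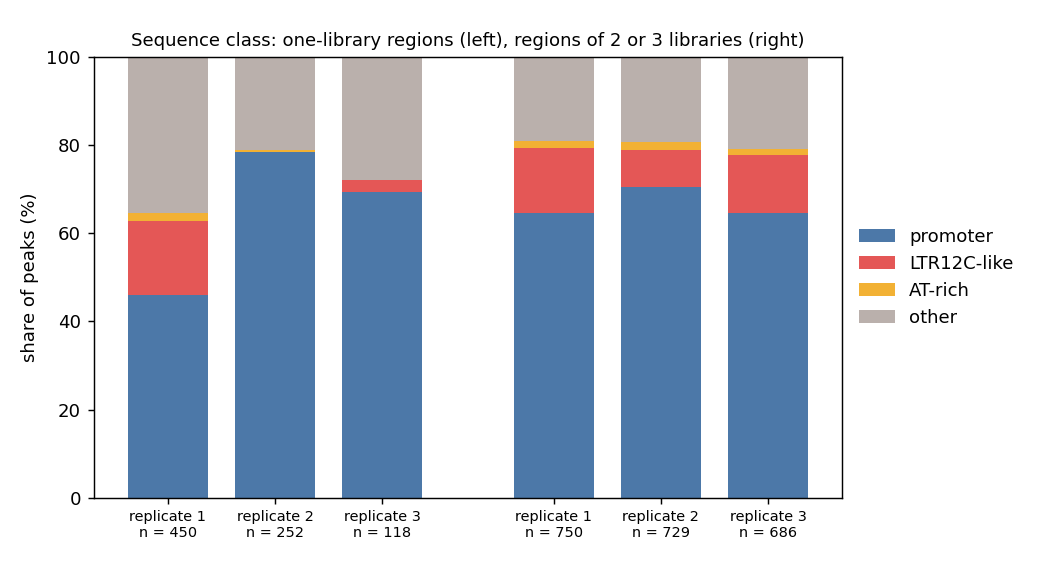
Share of peaks (%) in each sequence class for each HEK293T library, over one-library regions on the left and regions of 2 or 3 libraries on the right. The 3 one-library bars differ from each other (LTR12C-like 16.9%, 0% and 2.54%), while the LTR12C-like share of the bars on the right runs from 8.37% to 14.8%.

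Replicate 1 also had the longest list and the widest peaks. The LTR12C-like class requires 100 aligned bases of the peak itself, so it depends on peak width. The narrowest one-library peaks were 179, 137 and 136 bp in replicates 1, 2 and 3. When the 1257 strongest peaks of each list were taken, so that the lists were of equal length, the LTR12C-like regions numbered 53 of 189 one-library regions in replicate 1, 1 of 210 in replicate 2 and 6 of 192 in replicate 3. Promoters then made up 43.4%, 80.5% and 68.8%. The order of the libraries was the same with equal lists. The depth of each library after filtering is unknown. The parts of depth, list length and peak width in the result were not tested.

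The same split appeared among recurrent regions. Of the 110 regions with peaks in replicates 1 and 3, 43 were LTR12C-like (39.1%) and 40.9% were promoters. Of the 154 regions with peaks in replicates 1 and 2, 8 were LTR12C-like (5.19%) and 74.0% were promoters. Of the 88 regions with peaks in replicates 2 and 3, 0 were LTR12C-like and 79.5% were promoters. So the 3 combinations without replicate 1, which were replicate 2 alone, replicate 3 alone and the pair of them, held 3 LTR12C-like regions in all, and the highest share was that of replicates 1 and 3.

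**Figure D2:**
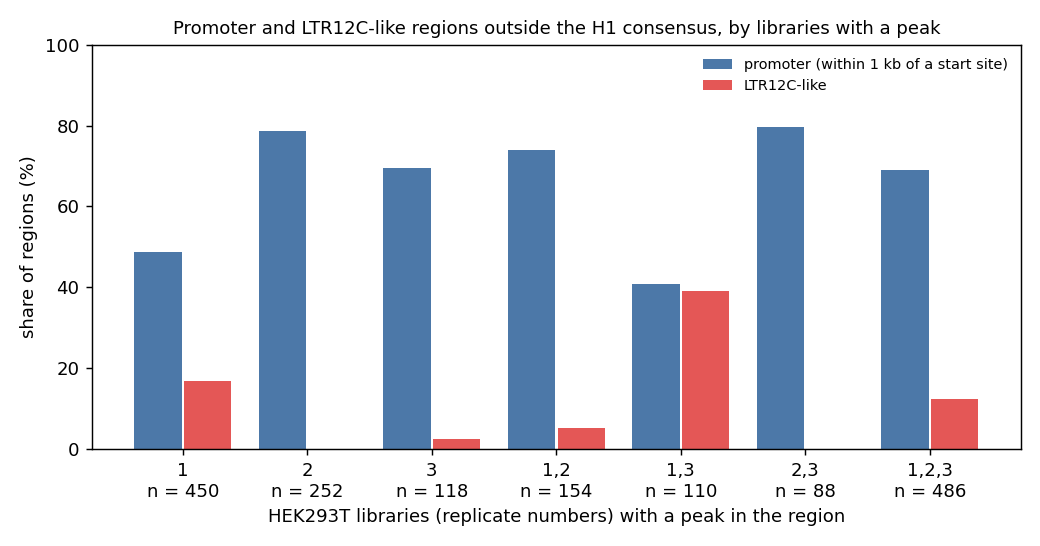
Share of regions outside the H1 consensus (%) that were promoters (blue) or LTR12C-like (red), by the HEK293T libraries with a peak in the region. The LTR12C-like share was 39.1% for replicates 1 and 3 together, 16.9% for replicate 1 alone and 0% for replicate 2 alone and for replicates 2 and 3 together.

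One-library peaks were next compared with recurrent peaks of the same list, to ask whether the rarely called regions differ in sequence from the repeatedly called ones. The unit of the test was the library. With 3 libraries, the exact two-sided sign-flip permutation test of the mean within-library difference cannot give a p below 0.25, so no comparison could pass 0.05. Values over the 3 libraries are given as mean ± SD (n = 3).

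The promoter share was 65.6% ± 15.3 for one-library peaks and 67.7% ± 3.15 for recurrent peaks. The difference of -2.12 percentage points (SD 13.2) was smaller than the spread between libraries (exact permutation p = 1). Replicate 1 had fewer promoters among its one-library peaks than among its recurrent peaks, 48.7% against 65.9%. Replicates 2 and 3 had more, 78.6% against 71.3% and 69.5% against 65.9%.

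The LTR12C-like share was 6.48% ± 9.11 against 12.1% ± 3.34, a difference of -5.62 points (SD 6.77, exact permutation p = 0.5). It was lower among one-library peaks in replicate 2 (0% against 8.37%) and replicate 3 (2.54% against 13.1%) and slightly higher in replicate 1 (16.9% against 14.8%). Within-library GC content (61.0% ± 3.38 against 60.8% ± 0.372, exact permutation p = 0.75) and CpG count per 300 bp (20.2 ± 4.23 against 20.2 ± 0.735, exact permutation p = 1) differed by less than the spread between libraries. The share of 24-mers present at 2 or more genome positions, a measure of repeated sequence, was 14.7% ± 6.25 against 13.6% ± 0.896 (exact permutation p = 1). It was 21.7% in the one-library regions of replicate 1, and 9.66% and 12.8% in those of replicates 2 and 3.

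In each of these 5 measures the 3 libraries varied more among their one-library peaks than among their recurrent peaks. The recurrent peaks are partly the same regions in each list, so their values share their source. Peaks of the weaker 50% of each list gave the same picture for the promoter share, at 51.4% against 71.9% in replicate 1 and 78.5% against 72.4% in replicate 2.

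**Figure D3:**
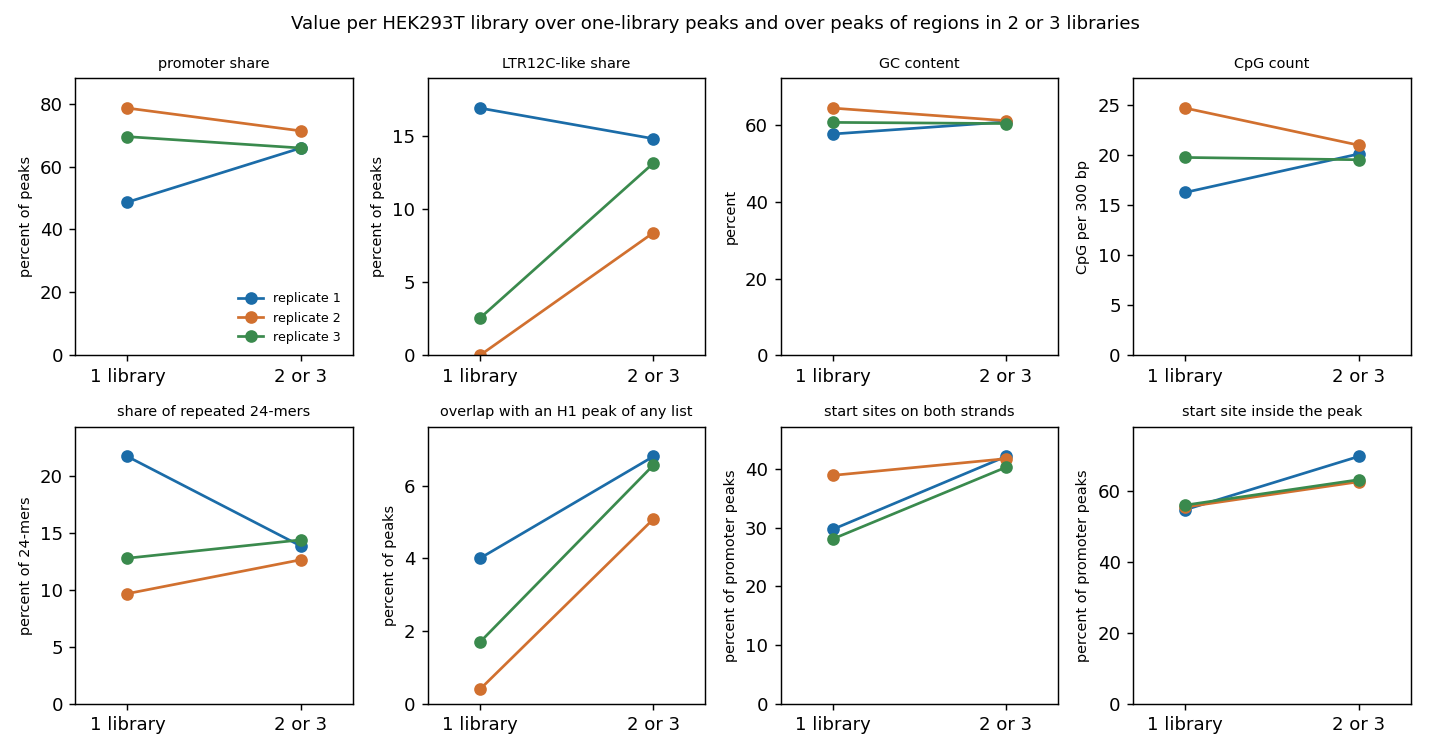
Value of each HEK293T library over its one-library peaks and over its peaks in regions of 2 or 3 libraries; each line joins the values of 1 library, and each axis starts at 0 with the unit beside it. The lines draw together from left to right for the promoter share, GC content, CpG count and repeated 24-mers, and run upward in all 3 libraries for the H1 overlap and both start site measures.

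Overlap with the remaining H1 peaks is given as a description, since the rule used H1 positions. A peak in a single H1 list was overlapped by 18 of 450 regions of replicate 1 (4.00%), 1 of 252 of replicate 2 (0.397%) and 2 of 118 of replicate 3 (1.69%). The recurrent peaks of the same lists gave 6.80%, 5.08% and 6.56%. The mean difference was -4.11 points (SD 1.14, n = 3). With replicate 1 left out and the regions classed again it was -1.04 points, and the remaining libraries differed in direction. Regions of the H1 consensus had been removed from both classes, so these counts concern H1 regions seen in 1 of the H1 lists. Of the 21 regions, 14 were LTR12C-like and 4 were AT-rich. The region of the promoter class among them was that of TMCC1, a protein of the endoplasmic reticulum membrane. The unclassed ones lay in an intron of SERINC2 and near RBM17. Some of the LTR12C-like regions also lay within 1 kb of a start site.

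LTR12C-like one-library regions of replicate 1 ranked above its promoters and unclassed regions, and below its AT-rich regions. Their median percentile was 36.97, against 17.4 for promoters, 19.6 for the unclassed regions and 68.7 for the AT-rich regions, and their scores reached 377. The 3 of replicate 3 had scores of 84 to 86 and a highest percentile of 5.85. In recurrent regions the LTR12C-like peaks had median percentiles of 59.9, 46.3 and 41.9, and in the H1 consensus of 85.0, 80.8 and 79.4.

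**Figure D4:**
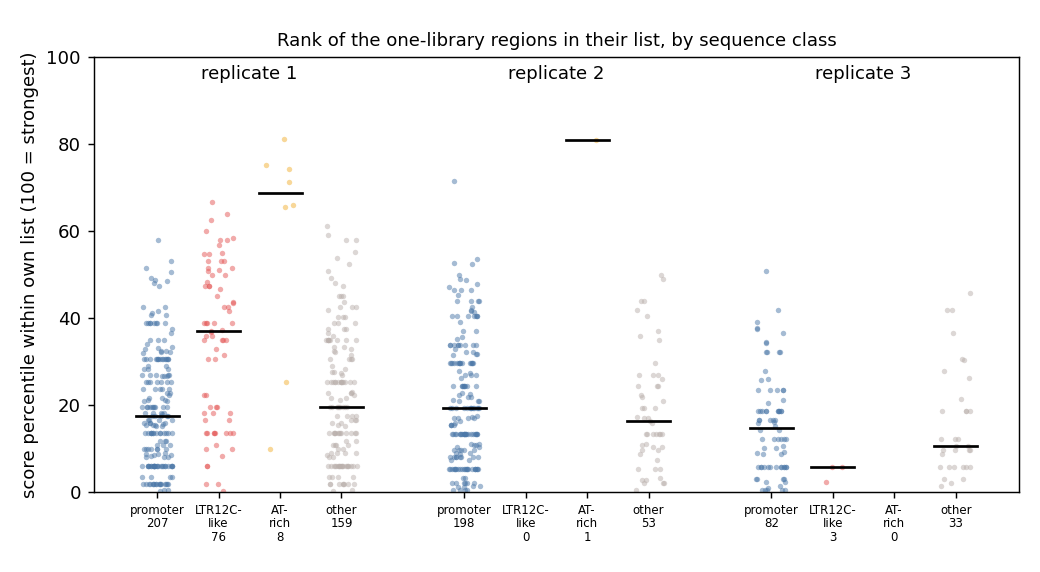
Score percentile of each one-library region within its own list (100 is the strongest peak), by library and sequence class, with the number of regions below each class and the median as a black line. The AT-rich regions of replicate 1 (median 68.7) and its LTR12C-like regions (median 36.97) lie above its promoters (median 17.4).

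In an ungapped match to the whole central stretch, the LTR12C-like one-library regions of replicate 1 were close to recurrent peaks. By that match they were further from the element than the peaks shared with H1. Over the whole 60 bases, the 76 LTR12C-like one-library regions of replicate 1 had a median identity of 71.7% to the element, close to the 70.0%, 76.7% and 70.0% of recurrent peaks in replicates 1, 2 and 3. Peaks at regions shared with H1 had 85.0% in each library, and the 3 one-library regions of replicate 3 had 86.7%. When each window was matched to the stretch with and without 1 of its unit copies, the version with 1 copy was the closer match for 37 of the 65 one-library regions of replicate 1 that matched either version at 75% or more (56.9%). It was the closer match for 57.0%, 44.4% and 53.8% of such recurrent peaks and for 37.9%, 35.6% and 36.3% of those shared with H1. With the closer version taken, median identity was 83.3% in LTR12C-like one-library regions of replicate 1, against 86.7%, 88.2% and 88.2% in peaks shared with H1. Over the whole blastn alignment to the element it was 82.8%, against 81.2%, 83.5% and 82.8%. Of the 464 LTR12C-like regions that placed the stretch, 404 overlapped the H1 consensus. The comparison of versions was made after the values were seen, and none of these differences was tested. One-library regions that were not LTR12C-like had a median stretch identity of 46.7% in each library.

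Some regions without a class aligned to LTR12C-like regions. Of the 245, 10 had a central window of 300 bp that aligned by blastn to many of them. These windows aligned to between 304 and 454 of the 464 LTR12C-like regions found in all 3 libraries. The peaks themselves, most of them shorter than the window, had at most 92 aligned bases to the cloned element. How far the shorter query lowered that number was not tested. All 10 came from replicate 1 and included a region in an intron of DLG2, which encodes a synaptic scaffold, and a pair of intergenic regions with LINC01262 as the nearest start site. Another 48 aligned to at most 19 regions found in all 3 libraries.

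The first 20 bases of the stretch were then sought alone, at 16 or more matching bases on either strand, in windows that were not LTR12C-like. Among the unclassed one-library regions, 18 of 159 in replicate 1 held it (11.3%, 95% interval 6.85 to 17.3), 3 of 53 in replicate 2 (5.66%, 1.18 to 15.7) and 0 of 33 in replicate 3 (0 to 10.6). In unclassed recurrent peaks the shares were 9.79%, 11.3% and 16.8%. At one-library promoters it was held by 1 of 207, 0 of 198 and 1 of 82 windows, against 2.27%, 2.72% and 2.48% of recurrent promoter windows. Of the windows of the same length at the start sites of all protein-coding genes, 21 of 20163 (0.104%) held it. The replicate 3 promoter with a match was that of ENSG00000228792, the highest ranked one-library region of that library, whose sequence is printed above. The limit of 16 bases and the choice of the 20 bases were made after the values were seen, so these shares are a description.

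AT-rich regions were the strongest one-library regions of replicates 1 and 2. The highest lay in an intron of BABAM2, a subunit of a BRCA1-containing complex, with a score of 917 and rank 321 of 1711. The next in replicate 1 lay in ENSG00000237400 (score 631), in an intron of MLLT3 (590), a component of the super elongation complex, and nearest to DYSF (499), the gene of a muscle membrane repair protein. In replicate 2 the highest lay in an intron of CFAP54 (625), a gene of the ciliary axoneme, at percentile 81.04. In GC content the central windows of BABAM2, ENSG00000237400, MLLT3 and CFAP54 had 3.33%, 13.0%, 14.7% and 24.0%, and 62.5% to 82.3% of their 24-mers occurred at 2 or more genome positions, so the placement of reads there is uncertain.

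AT-rich peaks were not particular to the one-library regions. The HEK293T lists held 56, 23 and 12 of them in replicates 1, 2 and 3 (3.27%, 1.61% and 0.955% of each list). The H1 lists, which were shorter, held 57, 40 and 21 (8.95%, 6.94% and 4.24%). By region, 9 were one-library regions, 14 were recurrent and 37 overlapped the H1 consensus, of which 28 had a peak in 1 HEK293T list. Of the 46 regions that the H1 overlap removed, 28 were AT-rich and 11 were LTR12C-like. The AT-rich share therefore depends on the dropping of H1 regions.

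Promoter one-library peaks contained a start site less often, a measure that depends on peak width. Of the promoter peaks, a start site was inside 54.8%, 55.6% and 56.1% of the one-library peaks in replicates 1, 2 and 3, against 69.8%, 62.7% and 63.3% of the recurrent peaks. The mean difference was -9.79 points (SD 4.55, n = 3), lower in 3 of 3 libraries (exact permutation p = 0.25, the smallest possible). Without replicate 1 it was -5.25 points. One-library peaks were also narrower. With a window of 300 bp at the peak centre in place of the peak, the difference was -3.91 points (exact permutation p = 0.5). The libraries then differed in direction.

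Start sites on both strands within 1 kb, as at divergent promoters, were found at 29.7%, 38.9% and 28.0% of one-library promoter peaks and at 42.1%, 41.7% and 40.3% of recurrent ones. The mean difference was -9.16 points (SD 5.47, n = 3), lower in 3 of 3 libraries (exact permutation p = 0.25). With the central window it was -9.09 points. It was -2.75 points with replicate 1 left out, where the remaining libraries differed in direction. Among the strongest 50% of each list, H1 lists included, it was of the other sign, 4.82 points. Both start site comparisons were added after the data were seen.

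In base composition the one-library promoters had medians above those of promoters in general, as recurrent promoters did. Their median GC content was 64.3%, 67.3% and 63.0% in replicates 1, 2 and 3, and their median CpG count per 300 bp was 26, 28.5 and 23. The windows at the start sites of all protein-coding genes had medians of 62.7% and 21, and the recurrent promoters of the same lists had 65.3%, 65.3% and 64.7% GC and 25, 26 and 25 CpG.

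Short motifs of general promoter factors were counted in these windows on both strands. The ETS letters CCGGAAG were in 29 of 207 one-library promoters of replicate 1 (14.0%, 95% interval 9.59 to 19.5), in 31 of 198 of replicate 2 (15.7%, 10.9 to 21.5) and in 26 of 82 of replicate 3 (31.7%, 21.9 to 42.9). Recurrent promoters of the same lists had 13.6%, 11.9% and 13.1%, and all promoter windows had 12.1%. The share of replicate 3 was the highest of these, but windows of 1 library are not replicates and the motif was singled out from 8 after the values were seen, so the difference between libraries was not tested. An example is the window at the start sites of LARRPM and LINC00240, chr6:26988040-26988139, plus strand, with the ETS letters in capitals.
Replicate 3, LARRPM and LINC00240: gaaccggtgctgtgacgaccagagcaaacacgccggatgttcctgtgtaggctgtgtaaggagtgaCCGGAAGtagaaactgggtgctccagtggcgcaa
The SP/KLF letters GGGCGG were in 59.4%, 68.2% and 46.3% of one-library promoters, against 59.6%, 61.7% and 60.7% of recurrent ones and 54.0% of all. The E-box letters CACGTG were in 10.1%, 3.03% and 6.10%, against 9.07%, 9.53% and 7.90% of recurrent ones and 7.75% of all. The NF-Y letters CCAAT were in 27.1%, 19.7% and 28.0%, against 25.8%, 23.5% and 24.8% of recurrent ones and 33.7% of all. The NRF1 letters CGCATGCG were in 1.45%, 1.01% and 2.44%, against 4.54%, 4.09% and 4.74% of recurrent ones and 2.42% of all. The CRE letters TGACGTCA were in 3.38%, 3.03% and 2.44%, against 2.06%, 1.95% and 2.03% of recurrent ones and 2.17% of all. The YY1 letters AAGATGGC were in 1.45%, 2.53% and 4.88%, against 3.09%, 3.11% and 2.71% of recurrent ones and 3.62% of all. The core promoter box TATAAA was in 4.35%, 1.52% and 4.88%, against 3.30%, 3.31% and 2.71% of recurrent ones and 9.21% of all. A match is a description of the letters and not of binding.

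**Figure D5:**
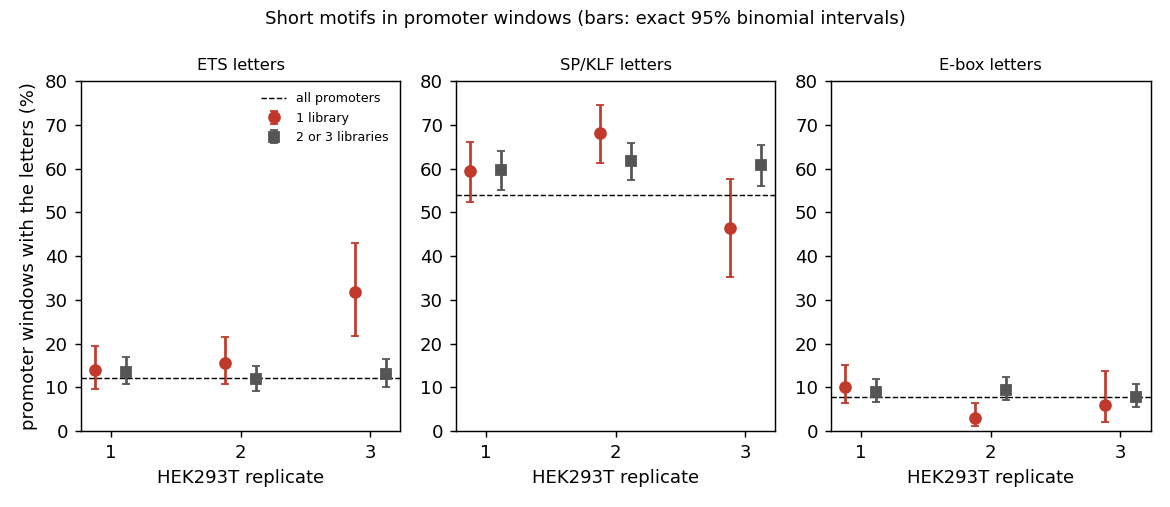
Share of promoter windows (%) that hold the letters of the ETS, SP/KLF and E-box motifs on either strand, for one-library peaks (red) and peaks of 2 or 3 libraries (grey) of each HEK293T replicate, with exact 95% binomial intervals and the share of all promoter windows as a dashed line. The ETS share of replicate 3 (31.7%) lies above the line at 12.1% and above the other values.

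Of 20136 protein-coding genes, 479 (2.38%) had a one-library region within 1 kb of a start site and 611 (3.03%) had a recurrent one, with 19 genes in both. In gene lists, the counts are read against these shares and carry no test. Zinc finger genes had 25 of 515 (4.85%) with a one-library region and 28 (5.44%) with a recurrent one. The strongest was the divergent promoter of ZNF569 and ZNF570 (replicate 1, percentile 42.6), followed by ZNF529 (30.5). Cytoplasmic ribosomal protein genes had 5 of 90 (RPL18, RPL36, RPL37, RPL39L and RPS29), from all 3 libraries, and 1 recurrent. Mitochondrial ribosomal protein genes had 0 of 78 and 1 recurrent.

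Respiratory chain genes had 2 of 103, which were UQCR10, a subunit of complex III, and NDUFAF5, an assembly factor of complex I, and 5 recurrent. Histone genes had 1 of 92, H2AZ2, a replication-independent H2A variant, and 6 recurrent. The list of axonemal dynein and cilium genes had 11 of 279 and 9 recurrent. Its one-library members included DNAH2, an axonemal dynein heavy chain, IFT122, a subunit of the intraflagellar transport machinery, and BBS5 and BBS10, genes of Bardet-Biedl syndrome. Most of the list's other members were coiled-coil domain genes such as CCDC137 (percentile 48.9), whose inclusion rests on the gene symbol. No protein-coding gene of any of these lists had both a one-library and a recurrent region. Over all protein-coding genes only 19 of 20136 had both, so this absence is not read as a trait of the lists.

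Single promoters followed the AT-rich region in replicate 2 and led the ranks in replicate 3. In replicate 2 the peak at SNORD3A, a U3 small nucleolar RNA gene, had a score of 408 and percentile 71.4. All of its 24-mers (100%) occurred at several positions of the genome, so its assignment to SNORD3A is uncertain. Next were ANKLE2, which acts in nuclear envelope reassembly (217), EXO1, a DNA repair exonuclease (211), TOR1AIP1, an inner nuclear membrane protein (209), and R3HDM2 (195), between percentiles 49.9 and 53.6.

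In replicate 3 the highest were the promoter of ENSG00000228792 (221, percentile 50.8), whose sequence is printed above, an intron of PFDN1, a prefoldin subunit (178), and the promoter of TTK, a spindle checkpoint kinase (166, a score shared with regions in ENSG00000287001 and near SBK2). The promoter of CUTA followed (155). In replicate 1 the highest of the promoter class, which leaves out LTR12C-like and AT-rich regions at promoters, was the one between EIF2AK3, the kinase PERK of the unfolded protein response, and RPIA (258, percentile 57.98).

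Genes of the study's own interest had no close one-library region. The nearest to DNAH11 was at the promoter of TRA2A, 1639354 bp away, and the nearest to C4orf47 was an LTR12C-like region near CENPU, 685062 bp away. ZNF676 itself and its paralog ZNF728 had as nearest the promoter of ZNF429, at 690887 and 1481303 bp. Regions shared between lists are outside the rule, so these distances do not show that ZNF676 was absent from the genes. For DNAH11 and C4orf47 the paper reports strong ZNF676 peaks at their regulatory regions.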

How the data were processed

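The authors aligned read pairs with Bowtie2 to hg19 (GRCh37), filtered them on mapping quality, blacklisted regions and high signal in the input, and ran MACS2 on each library against the input of the cell line; Picard was used to mark duplicates, which were removed in H1 only. The authors deposited 1 BED list per immunoprecipitated library, with positions and a score of unstated scale. The 2 inputs were not analysed, and the sequences of the AT-rich regions are not reported here. The members, lists and tests were chosen with earlier results of these data known.

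Peaks of the 6 lists were merged, classed and ranked here, and coordinates are given from 1. Start sites, exons and UTRs came from GENCODE release 44 lifted to GRCh37. GC, CpG, repeated 24-mers and motifs were read in the 300 bp around the peak centre. LTR12C-like meant a blastn alignment of at least 100 bases and an E-value up to 1e-10, scaled to 3000000000 bp. Reads of low mapping quality had been removed, which lowers signal on near-identical repeats. Library depths after filtering are not known, so precision is given as exact 95% binomial intervals. Classes were compared within libraries by an exact two-sided sign-flip permutation test; peaks are not replicates, and the libraries are biological triplicates per the study's methods. Pairing comes from the library, since both classes are read from the same list.

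Named regions were, by rule, the 6 highest ranked per library, the 2 highest LTR12C-like ones per library, the 2 highest at a promoter of each gene list, those nearest to 4 genes of the study, the 3 nearest to a peak of another list, the 3 smallest overlaps and the 3 highest ranked that overlap H1. Other names in the text (for example EIF2AK3, IFT122, DLG2, TMCC1, MIB1, KIRREL3, MAGI3 and LARRPM) were chosen after their values were seen. Merging was tested on simulated data against bedtools, with identical counts, and 200 of 200 mutated pieces of the element were recovered. The software comprised matplotlib 3.10.9, samtools 1.23.1, bedtools 2.31.1, blastn 2.17.0, numba 0.67.0, pysam 0.24.0, pandas 2.3.3, scipy 1.17.1, numpy 2.4.6 and Python 3.11.15. Alternatives changed the list size, overlap rule, dropping of H1 regions, library set, windows and thresholds.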

Additional observations from a re-analysis of the deposited data

How the results depend on the processing

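Of 96 alternatives over 8 comparisons of one-library with recurrent peaks, 79 kept the direction of the mean difference and 17 did not; no test could pass 0.05, so this says nothing of stability. The H1 overlap and the start site inside the peak kept their direction in all of theirs. The number of one-library regions fell to 591 with equal lists and to 272 with the strongest 50% of each list, as fewer peaks entered. The setting with the strongest 50% cut the H1 lists as well, so fewer H1 regions could be dropped. Recurrent peaks were then on average 42.1% LTR12C-like, against 12.1% in the main setting, and 44.8% at promoters, against 67.7%. The promoter difference was 14.7 points, GC -0.72, repeated 24-mers -6.60 and start sites on both strands 4.82. The LTR12C-like difference grew to -19.0. How far the cut of the H1 lists entered these differences was not tested. With no region dropped, the promoter difference was 19.6 points that of repeated 24-mers -9.38, of LTR12C-like -36.0, of the H1 overlap -37.2 and of CpG 3.49, since the H1 consensus then counts as recurrent. Equal lists gave a CpG difference of -0.313, the weaker 50% gave -0.297 for GC and -0.106 for CpG, and removal of AT-rich peaks, an alternative added after seeing the data, gave -0.315 and -0.155. The cause of these reversals was otherwise not tested.

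With each library left out in turn, the number of regions ran from 635 to 900 and the promoter difference from -7.20 to 0.802 points. The LTR12C-like difference ran from -8.53 to 0.554, GC from -0.314 to 0.835, CpG from -0.768 to 0.438, repeated 24-mers from -0.298 to 3.20, H1 overlap from -5.08 to -1.04, start sites on both strands from -6.85 to -2.75, and the start site inside the peak from -12.8 to -5.25. GC reversed without replicate 2 (-0.296) and without replicate 3.

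Without the pairing by library (no replicate block) the differences are the same by construction: -2.12 for promoters, -5.62 for LTR12C-like, 0.144 for GC, 0.0297 for CpG, 1.09 for repeated 24-mers, -4.11 for H1 overlap, -9.16 for both strands and -9.79 for the start site inside the peak. The unpaired exact permutation p was 0.1, the smallest possible, for the last 2 and 0.4 to 1 for the first 5; the H1 overlap is a description. Unknown library depth and the lack of a control for the tag limit what absence from a list can mean.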
